A study of Mus musculus with 32 samples.

Results

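Expression of 8 genes of the fibroblast growth factor (FGF) system was examined in 32 orthotopic mouse liver tumors: the receptors Fgfr1, Fgfr2, Fgfr3 and Fgfr4, the co-receptor Klb, and the ligands Fgf1, Fgf2 and Fgf21. The 8 genes were taken by name from the 54446 gene rows of the count tables, from a list drawn up with earlier results of these data known, and all 8 were matched and tested in every comparison. FGFR1 was included as one of the kinases inhibited by regorafenib. Tumors were grown from BNL-MEA, a chemically transformed mouse liver cell line, in the livers of immune-competent BALB/c mice, so that each group rests on the same line and strain. Bulk tumor RNA was sequenced in 3 experiments, each with its own vehicle group. The dose experiment (batch p112) held 4 vehicle tumors, 3 treated with regorafenib at 5 mg/kg/day and 3 at 20 mg/kg/day. The DC-101 experiment (p103) held 4 vehicle tumors, 3 treated with regorafenib at 5 mg/kg/day and 3 given DC-101, an antibody to mouse VEGFR2, as 800 μg by intraperitoneal injection on days 1, 3 and 5. The anti-PD1 experiment (p101) held 3 tumors each of vehicle, regorafenib at 5 mg/kg/day, anti-PD1 antibody and both agents together. The labels give no age or sex of the mice. Given by mouth, regorafenib blocks the VEGF, PDGF and FGF receptor kinases and others.

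FGF ligands bind receptor tyrosine kinases at the cell surface together with heparan sulfate, and the dimerized receptor signals through FRS2 and the RAS-ERK cascade, which induces its own feedback inhibitors. The paracrine ligands FGF1 and FGF2 act on neighboring cells, whereas FGF21 is a circulating hormone of the liver that needs the single-pass protein β-klotho, encoded by Klb, to bind a receptor. In the liver, hepatocytes carry FGFR4 with β-klotho, a pair that receives the intestinal hormone FGF15/19 and lowers bile acid synthesis, while FGFR1 is typical of fibroblasts and other mesenchymal cells.

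The depth of the libraries was between 16.8 and 27.7 M counts, and 21417 to 24321 genes had at least 1 count. Values are in CPM, the counts of a gene scaled to a fixed library total after TMM, which corrects for differences in composition between libraries. The TMM factor of 1 library stood apart, at 0.678 for replicate 1 of the 20 mg/kg/day group. The label of the tissue, hepatocellular carcinoma, was set beside hepatocyte markers: all 20 genes of a marker list were detected in each experiment, but the mean log2 CPM of the list ran from -0.07 to 11.98 over the 32 libraries and differed widely within groups. RNA for albumin (Alb), the main secreted protein of hepatocytes, ranged from 11 to 27900 CPM. In such bulk samples fewer cells of a type and less RNA per cell cannot be told apart.

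Fgfr1, which encodes one of the kinases that regorafenib inhibits, was the most abundant of the 8 transcripts. Per kilobase of exon, its median over the 32 libraries was 32.6 RPKM, with a range from 5.87 to 61.4. The hormone Fgf21 followed with a median of 5.08 RPKM, then Fgf2 with 1.59 and Fgf1 with 1.17. The other receptors were lower, at a median of 0.581 RPKM for Fgfr2, 0.561 for Fgfr4 and 0.285 for Fgfr3, and Klb was the lowest at 0.174. Neighbors in this order did not all keep it library by library. Fgfr1 was above Fgf21 in 31 of 32 libraries, Fgf1 above Fgfr2 in 29, and Fgfr4 above Fgfr3 and Fgfr3 above Klb in 27 each. Fgf21 was above Fgf2 in 26 libraries and Fgf2 above Fgf1 in 20. Fgfr2, with the higher median, was above Fgfr4 in only 9 libraries, so Fgfr4 was the higher of the pair in 23 of 32 libraries, against the order of the medians.

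The members differed in how far they varied between tumors. Fgfr1 ranged from 58.0 to 606 CPM with a median of 322, and Fgf2 from 2.79 to 39.9 CPM with a median of 10.8. Fgfr4 ranged from 0.0432 to 92.1 CPM around a median of 1.99, Fgfr2 from 0.0899 to 59.4 around 5.99 and Fgfr3 from 0.545 to 50.5 around 2.04. Klb ran from 0 to 29.7 CPM around 0.792, Fgf1 from 1.77 to 110 around 6.34 and Fgf21 from 0.254 to 19.7 around 4.83. At the low end these values rest on few reads. Klb had 3 or fewer counts in 7 libraries and none in 3 of them, and Fgfr2 and Fgfr4 had 3 or fewer in 2 libraries each.

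**Figure D1:**
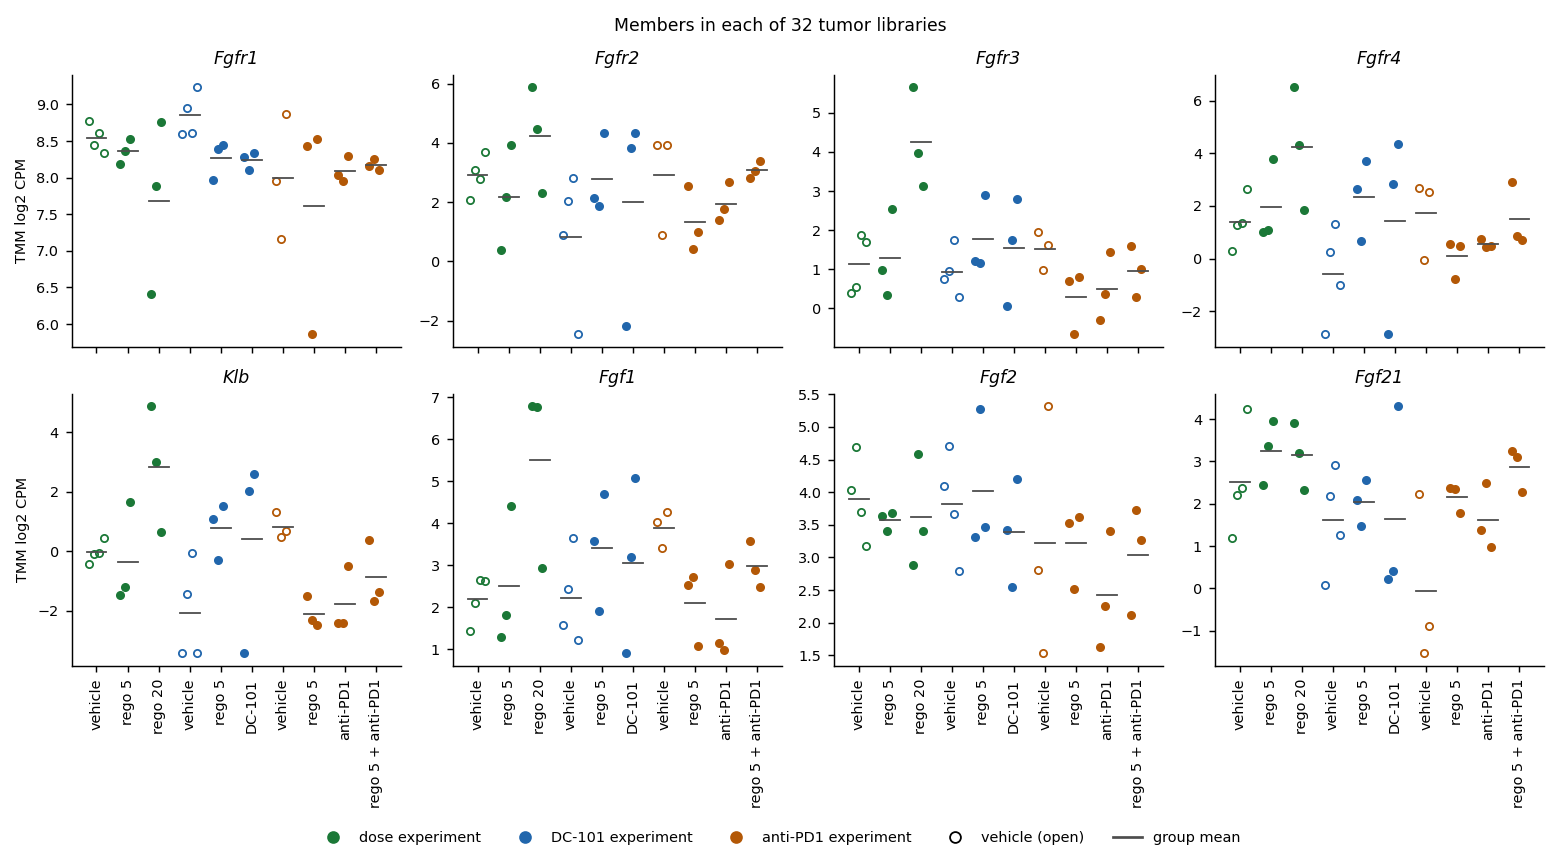
Expression of the 8 members in every tumor, as TMM log2 CPM with a prior count of 2 (y axis, scaled for each gene) by treatment group (x axis; rego 5 and rego 20 are regorafenib at 5 and 20 mg/kg/day). Points are single libraries, colored by experiment and open for vehicle, and lines are group means; the 3 libraries at 20 mg/kg/day lie above all 4 vehicle libraries of their experiment for Fgfr3, Klb and Fgf1, while those of Fgfr1, Fgf2 and Fgf21 overlap them.

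The members fell into separate sets by their relation with Alb. Pearson's r and Spearman's rho were computed on log2 CPM centered on each experiment, with 100000 permutations of the libraries within experiments and adjustment over 15428 genes. Klb followed Alb most closely, with r = 0.91 and rho = 0.92. Fgfr4, the partner of β-klotho in hepatocytes, had r = 0.87 and rho = 0.82. The receptor Fgfr2 had r = 0.82 and rho = 0.81, the ligand Fgf1 r = 0.79 and rho = 0.89, and the receptor Fgfr3 r = 0.67 and rho = 0.72. For each of these 5 genes both coefficients had a permutation p of 1e-05, the smallest the permutations can give, and an adjusted p of 0.000162 for r and 0.000174 for rho. Of all genes, 13.9% rose with Alb and 8.08% fell with it by the same test on r. Klb ranked 211 among the 15428 genes by its r, Fgfr4 331, Fgfr2 464, Fgf1 539 and Fgfr3 886.

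The remaining members were not among the genes that rose with Alb. Fgfr1 was lower where Alb was higher, with r = -0.36 (permutation p = 0.00969, adjusted p = 0.0457) and rho = -0.45 (permutation p = 0.00985, adjusted p = 0.0519), so that only r passed. The relation of Fgfr1 was not called on values centered on treatment groups, where r was -0.25 (permutation, adjusted p = 0.271). Fgf21 had r = 0.34 and rho = 0.39 with adjusted permutation p of 0.181 and 0.117. Fgf2 had r = -0.01 and rho = -0.04 with adjusted permutation p of 0.972 and 0.891. Both ligands, one hormonal and one paracrine, thus did not pass the test.

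The relation with Alb was recomputed within experiments. Among the tumors of the dose experiment r was 0.92 for Klb, 0.98 for Fgfr4, 0.91 for Fgf1, 0.87 for Fgfr3 and 0.86 for Fgfr2. Over all tumors of the DC-101 experiment, those given regorafenib included, it was 0.98, 0.94, 0.90, 0.86 and 0.91 in the same order. In the anti-PD1 experiment Fgf1 and Klb kept high values (r = 0.95 and 0.87), and Fgfr3, Fgfr4 and Fgfr2 had 0.61, 0.49 and 0.49, with adjusted permutation p of 0.353, 0.547 and 0.554 within that experiment. For Fgfr1 the same 3 values of r were -0.76, -0.56 and -0.12. For Fgf21 the sign differed, with r = 0.69, 0.61 and -0.28 in these experiments, and for Fgf2 r was -0.25, -0.05 and 0.16. Without the 2 libraries farthest from the median of Alb, r over the rest was 0.91 for Klb, 0.86 for Fgfr4, 0.81 for Fgfr2, 0.84 for Fgf1, 0.71 for Fgfr3, -0.31 for Fgfr1, 0.25 for Fgf21 and -0.11 for Fgf2.

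**Figure D2:**
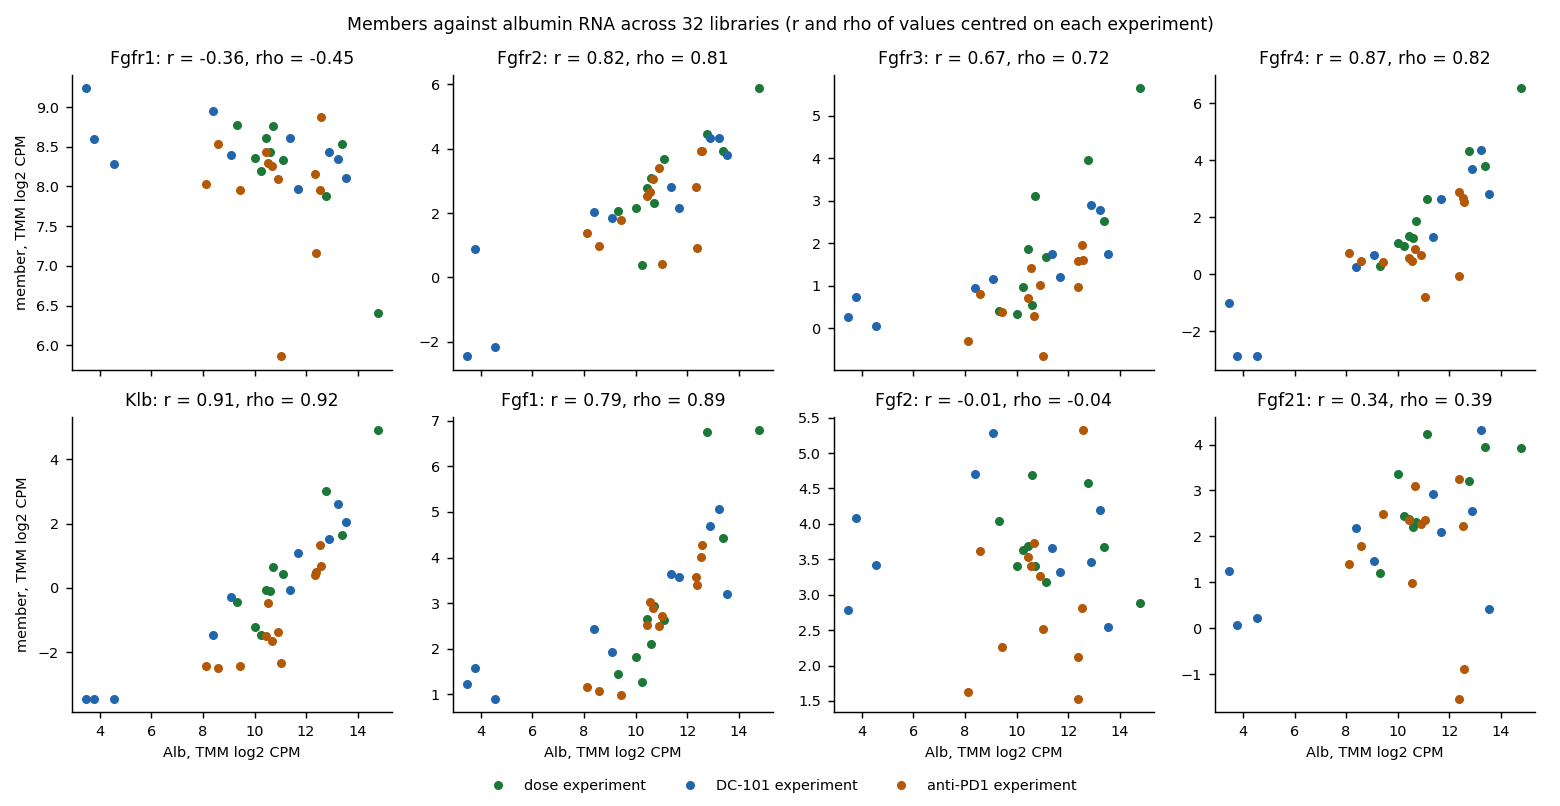
Each member (y axis, TMM log2 CPM) against Alb in the same library (x axis, TMM log2 CPM) for 32 libraries, colored by experiment; r and rho above each panel are from values centered on the experiments. Klb, Fgfr4, Fgfr2, Fgf1 and Fgfr3 climb with Alb (r from 0.67 to 0.91), Fgf2 and Fgf21 scatter, and Fgfr1 is at 310 to 606 CPM in the 3 libraries with the least Alb, around or above its median of 322.

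The members were then followed in the tumors with the least hepatocyte RNA. In vehicle replicates 1 and 4 and DC-101 replicate 1 of the DC-101 experiment, Alb was at 13.5, 11 and 23.1 CPM. Klb had 0 counts in each of these 3 libraries, Fgfr4 had 1, 9 and 1 counts, and Fgfr2 had 40, 2 and 3. Fgfr1 was at 387, 606 and 310 CPM in the same tumors, and Fgf2 was at 16.9, 6.83 and 10.6 CPM. Of the other genes that rose with Alb, Fgfr3 was at 1.58, 1.12 and 0.95 CPM (36, 25 and 22 counts) and Fgf1 at 2.89, 2.25 and 1.77 CPM (66, 50 and 41 counts), below their medians but not absent. Fgf21, which was not called with Alb, was also below its median of 4.83 in these tumors, at 0.965, 2.29 and 1.08 CPM. Transcripts of 5 members were therefore present where hepatocyte RNA was almost absent, among them the highest Fgfr1 value of the 32 libraries (606 CPM), and single libraries did not divide the members as the test did. At the other end, replicate 1 of the 20 mg/kg/day group had the highest Alb, at 27900 CPM, together with the highest Klb (29.7), Fgfr4 (92.1), Fgfr3 (50.5), Fgfr2 (59.4) and Fgf1 (110) of all libraries, and Fgfr1 at 84.8 CPM.

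Promoter sequence was available for 6 of the 8 members (7 entries), from RefSeq on GRCm38.p6. The 150 bases before the RefSeq start are shown for Klb and Fgfr4, the genes with the highest r with Alb (by rho Fgf1 came before Fgfr4), and for the hormone Fgf21, which acts through β-klotho but did not pass that test. Capitals mark matches to 5 motifs searched on both strands from 250 bases before to 50 after the start: the HNF1 motif GTTAATNAT, the HNF4 motif CAAAGTCC, the C/EBP-ATF composite TGATGCAA, the TATA box TATAAA and the GC box GGGCGG, none of which overlapped another in these stretches. RefSeq places the starts of Klb and Fgfr4 downstream of the Gencode gene starts, so most of the Klb stretch and all of the Fgfr4 stretch lie within the Gencode genes.
Klb, chr5:65348261-65348410, plus strand: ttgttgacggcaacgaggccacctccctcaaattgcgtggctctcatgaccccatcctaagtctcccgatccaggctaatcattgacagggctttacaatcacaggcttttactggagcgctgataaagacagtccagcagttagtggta
Fgfr4, chr13:55152668-55152817, plus strand: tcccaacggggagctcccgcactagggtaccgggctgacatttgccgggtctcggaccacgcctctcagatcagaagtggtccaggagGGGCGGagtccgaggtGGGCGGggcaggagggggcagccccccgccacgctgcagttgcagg
Fgf21, chr7:45615491-45615640, minus strand: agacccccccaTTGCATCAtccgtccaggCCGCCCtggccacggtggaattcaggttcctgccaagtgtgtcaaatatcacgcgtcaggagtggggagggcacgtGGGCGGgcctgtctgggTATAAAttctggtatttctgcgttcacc

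The Klb stretch held none of these letters and was 50.7% G and C, whereas that of Fgfr4 was 70.0% G and C with GC boxes that began 62 and 46 bases before the start. The Fgf21 stretch (58.7% G and C) had the C/EBP-ATF composite on the reverse strand, as TTGCATCA, from base -139, and a TATA box from base -28. That composite was in 0.895% of the 32851 promoter windows of the same length and the TATA box in 13.6%, each in 1 of the 7 member entries. The GC box was in 35.7% of all windows and in 5 of the 7 entries. The HNF1 and HNF4 letters were in 0.801% and 1.42% of all windows and in none of the member entries.

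At 20 mg/kg/day of regorafenib, Fgfr3, Fgf1 and Klb rose against vehicle, by 3.40, 3.98 and 3.82 on the log2 scale, and no member fell. The other genes that followed Alb, Fgfr4 and Fgfr2, did not pass the test. In this comparison 15.6% of all 16525 genes tested passed, 1455 higher and 1127 lower, with a median change of 0.02. The balance turned with limma-voom (458 higher, 891 lower), without a filter on low counts (198 higher, 218 lower) and with Alb as a covariate (31 higher, 68 lower). The adjusted p of the 3 members lay close to the threshold of 0.05, so their values are given library by library.

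Fgfr3, an FGF1-binding receptor, was at 1.23, 1.37, 3.60 and 3.14 CPM in the vehicle tumors and at 50.5, 15.5 and 8.58 CPM at 20 mg/kg/day. All 3 treated tumors lay above all 4 vehicle tumors, with a log2 change of 3.40 (SE 0.76, edgeR quasi-likelihood test, adjusted p = 0.0345). Klb was at 0.658, 0.857, 0.881 and 1.27 CPM in vehicle and at 29.7, 7.99 and 1.49 CPM at this dose. The groups did not overlap, but replicate 3 was just above the highest vehicle tumor; the log2 change was 3.82 (SE 1.06, edgeR, adjusted p = 0.0459). Fgf1, which can bind all 4 receptors, was at 2.63, 4.23, 6.2 and 6.07 CPM in vehicle and at 110, 108 and 7.53 CPM at this dose. Again the lowest treated tumor was replicate 3, above all vehicle tumors, and the log2 change was 3.98 (SE 1.0, edgeR, adjusted p = 0.0417). Such a complete separation upward, seen for 3 of 8 members, held for 11.8% of all genes tested.

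Fgfr4 did not pass the test. It was at 1.15, 2.34, 2.46 and 6.11 CPM in vehicle and at 92.1, 19.8 and 3.53 CPM at 20 mg/kg/day. Replicate 3 lay below vehicle replicate 4, and the log2 change was 3.67 (SE 1.13, edgeR, adjusted p = 0.0532). Fgfr2, a receptor typical of epithelial cells, was at 4.11, 8.51, 6.79 and 12.8 CPM in vehicle and at 59.4, 22.0 and 4.86 CPM at this dose, a log2 difference of 1.83 (SE 0.91, edgeR, adjusted p = 0.161) with overlapping groups.

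Fgfr1, a drug target, was at 436, 346, 391 and 321 CPM in vehicle and at 84.8, 236 and 434 CPM at 20 mg/kg/day. Replicates 1 and 2 were below all vehicle tumors and replicate 3 was level with the highest. The log2 difference was -0.57 (SE 0.43, edgeR, adjusted p = 0.342), with a 95% interval from -1.53 to 0.39. For the ligands Fgf2 and Fgf21 the groups overlapped as well. Fgf2 was at 16.4, 25.8, 12.8 and 9.01 CPM in vehicle and at 7.36, 23.8 and 10.5 CPM at this dose (log2 difference -0.20, 95% interval -1.19 to 0.79). Fgf21 was at 2.22, 4.51, 5.10 and 18.9 CPM in vehicle and at 15.1, 9.13 and 4.90 CPM at this dose (log2 difference 0.33, 95% interval -1.26 to 1.92).

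Hepatocyte RNA moved with this comparison. The mean log2 CPM of the hepatocyte list was 4.44 to 7.65 in the vehicle tumors and 11.98, 9.41 and 6.61 at 20 mg/kg/day, all 20 of its genes had a positive log2 change (median 3.82), and 2 of them passed the test. Other markers moved as well: 3 of 10 biliary and progenitor epithelial markers rose (median 1.89), 4 of 10 T cell markers rose (median 1.61) and 9 of 12 macrophage markers fell (median -1.35). In addition, 3 of 14 endothelial markers (median -0.41) and 1 of 6 erythroid markers (median -2.08) fell. Of 14 fibroblast and stellate markers 1 rose (median 0.31). Mitochondrial reads were 1.84 to 2.31% of counts in vehicle and 5.37, 2.86 and 2.14% in the treated tumors. The part of these in the rise of the 3 members was not tested. With Alb of each library as a covariate, the log2 change was 1.60 for Fgfr3 (edgeR, adjusted p = 0.0882), 1.5 for Fgf1 (adjusted p = 0.239) and 0.66 for Klb (adjusted p = 0.369), and no member passed. None passed with total count scaling or without a filter on low counts either, and over 7 such settings (6 for Fgf1) adjusted p ran from 7.91e-05 to 0.192 for Fgfr3, from 0.0422 to 0.239 for Fgf1 and from 0.000938 to 0.369 for Klb. The calls also depended on single libraries. Without any 1 of the 4 vehicle tumors, or without replicate 1 or replicate 2 of the treated group, 0 members passed, with adjusted p from 0.0555 to 0.139 for the 3 genes. The size of the change also rested on replicate 1: without it the log2 change was 2.37 for Fgfr3, 2.35 for Klb and 3.57 for Fgf1, 1.94 for Fgfr4, 0.73 for Fgfr2 and -0.13 for Fgfr1 (edgeR, adjusted p from 0.0627 to 0.757). Without replicate 3 of the treated group 5 members passed: Fgfr3, Fgfr4, Fgf1 and Klb were higher and Fgfr1 was lower, by -1.25 on the log2 scale (edgeR, adjusted p = 0.0314).

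Against 5 mg/kg/day in the same experiment, no member passed at 20 mg/kg/day, where 4.22% of all genes did. The log2 difference was 3.09 for Fgfr3 (SE 0.83, edgeR, adjusted p = 0.0684), 3.41 for Klb (SE 1.16, adjusted p = 0.107), 3.06 for Fgf1 (SE 1.08, adjusted p = 0.115) and 2.7 for Fgfr4 (SE 1.21, adjusted p = 0.174). This comparison shares its treated tumors with the one against vehicle. Without replicate 3 of the 20 mg/kg/day group, Fgfr3, Fgf1 and Klb passed (edgeR, adjusted p = 0.0256, 0.0296 and 0.0302). Without replicate 1 of that group the differences were 2.05 for Fgfr3, 1.95 for Klb, 2.67 for Fgf1 and 0.97 for Fgfr4, and over all single libraries left out adjusted p reached 0.248, 0.322, 0.331 and 0.621 in the same order. With Alb as a covariate, Fgfr3 and Klb passed at 2.06 and 1.89 (edgeR, adjusted p = 0.0220 and 0.0211), and over 7 alternative settings adjusted p ran from 0.00131 to 0.202 for Fgfr3 and from 0.0103 to 0.313 for Klb.

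**Figure D3:**
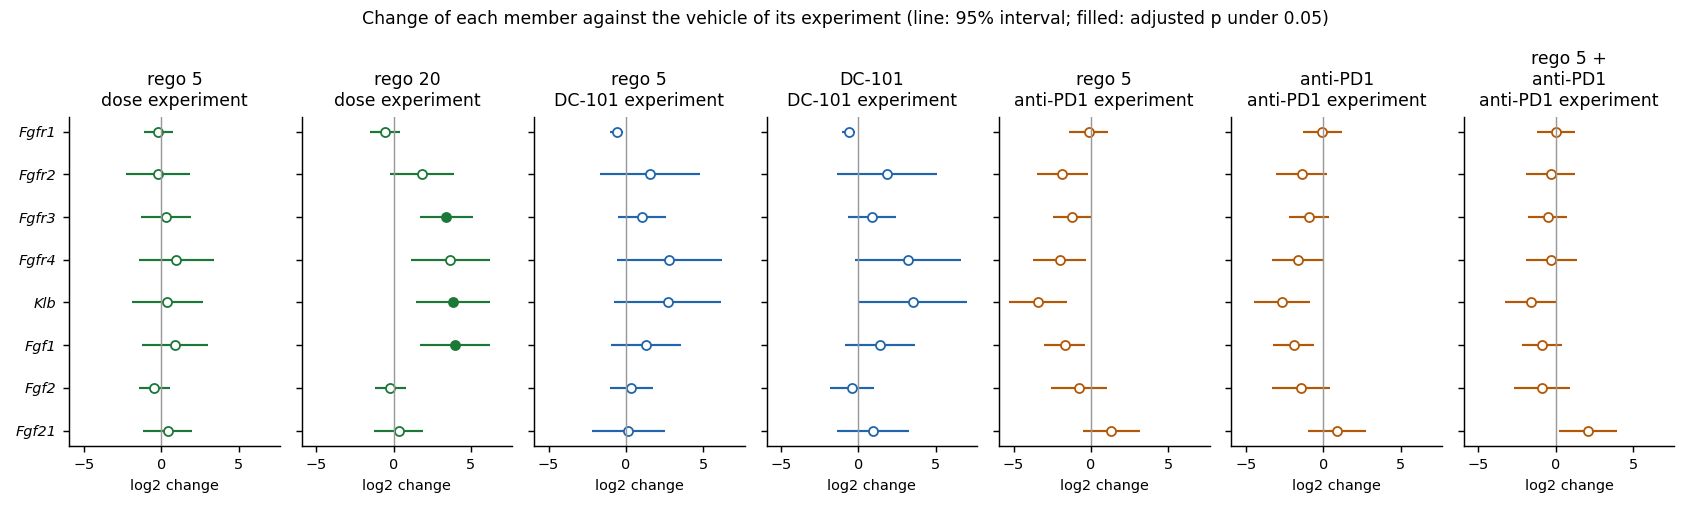
Log2 change of each member (x axis) against the vehicle group of its own experiment in the 7 comparisons with vehicle, by gene (y axis). Points are edgeR estimates, lines 95% intervals and filled points an adjusted p under 0.05; the filled points are Fgfr3, Klb and Fgf1 at 20 mg/kg/day, and the estimates of Fgfr4 and Klb at 5 mg/kg/day lie at 2.79 and 2.69 in the DC-101 experiment but at -2.01 and -3.42 in the anti-PD1 one.

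Regorafenib at 5 mg/kg/day was given in all 3 experiments, and no member passed in any of them. Over the 11 vehicle and 9 treated tumors together, with the experiment as a term, 1.52% of 17238 genes passed. The members lay between -0.32 for Fgfr1 (SE 0.25, edgeR, adjusted p = 0.580) and 0.85 for Fgfr4 (SE 0.77, adjusted p = 0.652), with overlapping groups for all 8. Fgfr4 turned to -0.30 without the DC-101 experiment. Within the dose experiment the percentage of genes called was 0 (817 at an unadjusted p under 0.05), and the members lay between -0.43 for Fgf2 (SE 0.44) and 0.97 for Fgfr4 (SE 1.07; edgeR, adjusted p = 0.991 for both). The latter value rested on replicate 3, the tumor of its group with the most Alb (10800 CPM), which had 13.8 CPM of Fgfr4 against 1.92 and 2.06 CPM in the others; without it the difference was -0.58.

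In the DC-101 experiment Fgfr1 had the most distinct values, although it did not pass the test. It was at 387, 493, 391 and 606 CPM in vehicle, at 250, 336 and 347 CPM with regorafenib and at 310, 276 and 323 CPM with DC-101. The regorafenib group and the DC-101 group each lay wholly below the 4 vehicle tumors. Markers of other cells were lower too: the mean log2 CPM of the endothelial list was 4.37 to 4.88 in vehicle and 2.83 to 4.37 in the treated tumors (median change of the 14 genes -1.48 with regorafenib and -1.30 with DC-101), and the fibroblast list had medians of -0.30 and -0.40. All 20 hepatocyte markers had positive changes, with medians of 3.11 with regorafenib and 3.6 with DC-101. None of these markers passed, and their part in the Fgfr1 values was not tested. The log2 difference of Fgfr1 was -0.59 for regorafenib (SE 0.18, edgeR, adjusted p = 0.173) and -0.63 for DC-101 (SE 0.18, adjusted p = 0.318). With Alb as a covariate it was -0.5 for regorafenib (edgeR, adjusted p = 0.472) and -0.55 for DC-101 (adjusted p = 0.746). A complete separation downward held for 9.48% of genes with regorafenib and 8.19% with DC-101, and the percentage of genes that passed was 0.0248 and 0 (2766 and 2131 at an unadjusted p under 0.05). Both differences share the 4 vehicle tumors. Between the treatments directly, Fgfr1 differed by 0.04 on the log2 scale, with a 95% interval from -0.40 to 0.48; the percentage of genes called there was 0 as well, and 1364 had an unadjusted p under 0.05. By DESeq2 Fgfr1 passed with regorafenib (log2 change -0.58, adjusted p = 0.0446), the lowest of 7 alternative settings that reached 0.472.

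The β-klotho receptor pair varied widely in the same experiment. Fgfr4 was at 0.0439, 1.10, 2.38 and 0.405 CPM in vehicle, at 6.08, 1.5 and 12.9 CPM with regorafenib and at 0.0432, 6.99 and 20.3 CPM with DC-101. Klb was at 0, 0.274, 0.875 and 0 CPM in vehicle, at 2.06, 0.728 and 2.80 CPM with regorafenib and at 0, 4.02 and 6.02 CPM with DC-101. The groups overlapped for both genes, and the highest vehicle tumor, replicate 3, was also the vehicle tumor with the most Alb (2660 CPM). The log2 differences were 2.79 (SE 1.48) for Fgfr4 and 2.69 (SE 1.53) for Klb with regorafenib, and 3.21 (SE 1.5) and 3.54 (SE 1.54) with DC-101, with adjusted p from 0.357 to 0.391 by edgeR. Without single libraries they ran from 1.95 to 3.7 for Fgfr4 and 2.28 to 4.2 for Klb with regorafenib, and from 1.85 to 4.11 and 2.82 to 5.04 with DC-101. The mean log2 CPM of the hepatocyte list ran from -0.07 to 6.69 in vehicle, from 5.63 to 9.01 with regorafenib and from 1.48 to 9.79 with DC-101, and with Alb as a covariate the 4 differences lay between 0.11 and 0.79.

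In the anti-PD1 experiment the hepatocyte-linked members pointed the other way, and here too none passed. Libraries of this experiment differed in mitochondrial reads, which were 0.92, 0.26 and 1.9% of counts in vehicle, 2.23, 0.31 and 1.84% with regorafenib, 0.37 to 0.68% with anti-PD1 and 1.36 to 2.34% with both agents. Replicate 2 of the regorafenib group also had the lowest Fgfr1 of all libraries, at 58.0 CPM. The part of this difference in the values that follow was not tested. Klb was at 2.43, 1.32 and 1.51 CPM in vehicle, at 0.264, 0.109 and 0.0898 CPM with regorafenib, at 0.0971, 0.0969 and 0.627 CPM with anti-PD1 and at 1.22, 0.227 and 0.295 CPM with both. For Klb each treated group lay wholly below the 3 vehicle tumors, which these comparisons share. Such a separation downward held for 7.36% of genes with regorafenib, 9.2% with anti-PD1 and 8.12% with both. The log2 difference was -3.42 with regorafenib (SE 0.87, edgeR, adjusted p = 0.246), -2.66 with anti-PD1 (SE 0.82, adjusted p = 0.251) and -1.60 with both (SE 0.77, adjusted p = 0.624). Low counts stand behind the treated values, and by DESeq2 the difference with regorafenib passed (-3.48, adjusted p = 0.0140), where 7 alternative settings ran up to 0.928.

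Fgf1 was at 16.2, 10.4 and 19.2 CPM in the vehicle tumors of this experiment, at 5.65, 6.48 and 2.02 CPM with regorafenib, at 2.14, 1.89 and 8.05 CPM with anti-PD1 and at 11.8, 7.35 and 5.53 CPM with both. The groups given a single agent lay wholly below vehicle and the combination overlapped it. The log2 difference was -1.70 with regorafenib (SE 0.61, edgeR, adjusted p = 0.319), -1.92 with anti-PD1 (SE 0.61, adjusted p = 0.251) and -0.89 with both (SE 0.60, adjusted p = 0.707). By DESeq2 the difference with anti-PD1 passed (-1.92, adjusted p = 0.0434), where 7 alternative settings ran up to 0.975. With Alb as a covariate the differences of Fgf1 were -0.08 with regorafenib, 0.08 with anti-PD1 and -0.08 with both. Those of Klb were -1.02, 0.12 and -0.72 in the same order, so that they became smaller but not all close to 0. Alb itself was at 5920, 5360 and 6100 CPM in vehicle, at 1390, 2100 and 383 CPM with regorafenib, at 280, 690 and 1490 CPM with anti-PD1 and at 5240, 1630 and 1900 CPM with both. The hepatocyte list had median changes of -1.77 with regorafenib, -2.23 with anti-PD1 and -0.02 with both. With both agents 10 of its 20 genes were above 0. Medians of the endothelial list were -1.13, -0.75 and -0.8 in the same order. No gene of these lists passed, and their part in the values above was not tested.

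Among the receptors in this experiment, Fgfr3 was at 3.79, 1.88 and 2.98 CPM in vehicle and at 1.54, 0.545 and 1.66 CPM with regorafenib, without overlap (log2 difference -1.20, SE 0.58, edgeR, adjusted p = 0.459). Fgfr4 and Fgfr2 overlapped, with log2 differences of -2.01 (SE 0.78, adjusted p = 0.355) and -1.85 (SE 0.75, adjusted p = 0.373) with regorafenib and -1.64 (SE 0.77, adjusted p = 0.382) and -1.41 (SE 0.74, adjusted p = 0.433) with anti-PD1 by edgeR. In both genes vehicle replicate 2 was low, at 0.862 CPM of Fgfr4 and 1.78 CPM of Fgfr2. With Alb as a covariate the differences were -1.5 and -1.14 with regorafenib and -1.03 and -0.57 with anti-PD1. Complete separation downward from vehicle was thus seen for Klb, Fgf1 and Fgfr3 with regorafenib, where 7.36% of genes showed it, for Klb and Fgf1 with anti-PD1 (9.2%) and for Klb with both agents (8.12%). In these 3 comparisons the percentage of genes that passed was 0, and 1964, 2269 and 1362 genes had an unadjusted p under 0.05.

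The hormone Fgf21 stood apart in this experiment with positive log2 differences in all 3 treated groups. It was at 4.61, 0.254 and 0.445 CPM in vehicle, at 5.05, 5.01 and 3.37 CPM with regorafenib, at 2.52, 5.52 and 1.88 CPM with anti-PD1 and at 9.44, 8.48 and 4.77 CPM with both. The combination lay wholly above vehicle, as 9.58% of genes did, and vehicle replicate 1 alone reached the level of the treated tumors. The log2 difference was 2.08 with both agents (SE 0.86, edgeR, adjusted p = 0.572), 1.32 with regorafenib (SE 0.85, adjusted p = 0.603) and 0.89 with anti-PD1 (SE 0.85, adjusted p = 0.686). Without vehicle replicate 1 these differences were 4.39, 3.62 and 3.19, with adjusted p from 0.160 to 0.251 by edgeR. All of these comparisons share the 3 vehicle tumors. Between the combination and anti-PD1 alone, none of the 8 members passed. Their log2 differences were all above 0, from 0.07 for Fgfr1 to 1.34 for Fgfr4 (SE 0.77, edgeR, adjusted p = 0.675), with 1.07 for Fgfr2 (SE 0.74, adjusted p = 0.737) and 1.19 for Fgf21 (SE 0.84, adjusted p = 0.743); with Alb as a covariate those of Fgfr2 and Fgf21 were 0.63 and 0.84. Of all 16615 genes tested there, 8236 had a difference above 0. Klb, Fgfr4, Fgfr2, Fgf1 and Fgfr3 also rose together with Alb over the libraries, so the members are not separate observations. All 20 hepatocyte markers (median 2.36) and all 10 T cell markers (median 1.78) also had positive differences and did not pass. In this comparison the percentage of genes called was 0 and 1443 genes had an unadjusted p under 0.05.

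Whether the change at 5 mg/kg/day differed between the 3 experiments was tested as an interaction. The percentage of genes called was 0 of 17238, with 1695 at an unadjusted p under 0.05. The members with the smallest unadjusted p were Klb (edgeR, adjusted p = 0.394), Fgfr4 (adjusted p = 0.445) and Fgf1 (adjusted p = 0.484). Their estimates had opposite signs in the experiments with DC-101 and with anti-PD1. So did those of Fgfr2 (1.55 and -1.85), Fgfr3 (1.0 and -1.20) and Fgf2 (0.35 and -0.76). For Fgfr1 the interaction had an adjusted p of 0.974.

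The rest of the pathway was followed through 6 gene lists in the comparison of 20 mg/kg/day with vehicle, where 15.6% of all genes passed. Of 17 genes that ERK signaling induces as feedback inhibitors or targets, 5 fell and none rose (median -0.61). They included the nuclear ERK phosphatase Dusp5 (-1.39, edgeR, adjusted p = 0.0313), the immediate early transcription factor Egr1 (-1.30, adjusted p = 0.0156) and the ETS factor Etv5 (-1.28, adjusted p = 0.0360), besides Dusp6 and Spred1. With Alb as a covariate 1 gene of this list was lower and its median was -0.26, and without replicate 1 of the treated group the median was -0.18 with 4 lower genes. The part of the 9 macrophage markers that fell in the same comparison in the values of the ERK list was not tested. Of 19 genes that carry the signal from the receptor to ERK, 1 rose, the docking protein Frs3 (1.48, edgeR, adjusted p = 0.0369), and the median was -0.10.

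Of 11 genes of the hepatocyte FGFR4-KLB axis and bile acid handling, 7 rose and none fell (median 4.41). Without replicate 1 of the treated group none passed and the median was 2.55. The genes that rose included Cyp7a1, the rate-limiting enzyme of bile acid synthesis (6.48, edgeR, adjusted p = 0.0480), the bile acid importer Slc10a1 (5.86, adjusted p = 0.0490) and the bile salt export pump Abcb11 (4.62, adjusted p = 0.0497). These are hepatocyte genes, and their median was 0.63 with Alb as a covariate, where none passed. Of 17 co-receptors and binding partners tested, 3 rose and 1 fell (median 0.42): the glypican Gpc3 (3.16, edgeR, adjusted p = 0.0310), the adhesion protein Flrt3 (2.09, adjusted p = 0.0373) and the decoy receptor Fgfrl1 (1.92, adjusted p = 0.0336) were higher, and Ext1, which elongates heparan sulfate, was lower (-1.09, adjusted p = 0.0321).

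Of 19 other FGF ligands, 7 had enough counts to be tested. Fgf18 (2.80, edgeR, adjusted p = 0.0355) and the intracellular Fgf11 (1.22, adjusted p = 0.0405) rose and the intracellular Fgf13 fell (-1.29, adjusted p = 0.0480), with a median of 0.54 for the list. Fgf18 and Fgf13 rested on low levels, with means of 0.199 and 0.63 CPM in vehicle and 1.38 and 0.257 CPM at this dose. Of 7 stress genes of the ATF4 response, which induces Fgf21, none passed (median -0.11). Calls in these lists changed with the libraries used. Without any 1 of the 4 vehicle tumors, 0 or 1 gene of the ERK list and 0 of the FGFR4-KLB axis, the co-receptors, the other ligands and the transducers passed, and with Alb as a covariate no gene of these lists passed but the 1 of the ERK list. Conversely, without replicate 3 of the treated group 11 of the FGFR4-KLB axis list rose, 8 of the ERK list fell and 1 rose, and 7 co-receptors rose and 3 fell. Total count scaling in place of TMM left 2 lower ERK genes, 1 higher co-receptor and no other call in the lists.

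At 5 mg/kg/day over the 3 experiments, 3 list genes passed, where 1.52% of all genes did and 9 of 14 endothelial markers fell (median -1.24). The ERK phosphatase Dusp6 was higher (0.64, SE 0.10, edgeR, adjusted p = 0.00188), whereas at 20 mg/kg/day it was lower than vehicle (-0.75, adjusted p = 0.0471) and lower than at 5 mg/kg/day in the same experiment (-1.15, edgeR, adjusted p = 0.0305). The heparan sulfate proteoglycan Sdc1 was lower (-0.67, SE 0.10, adjusted p = 0.00196), and so was Frs2, the main docking protein of FGF receptors (-0.57, SE 0.11, adjusted p = 0.0113). No list gene passed within a single experiment at that dose, with DC-101 or with anti-PD1. Between the doses, 5 list genes passed, where 4.22% of all genes did: besides Dusp6, Etv5 (-1.82), the weakly expressed Fgf13 (-1.86), Gpc3 (3.35) and Plcg1, a phospholipase activated by FGF receptors (0.52). In the same comparison 9 of 12 macrophage markers were lower (median -2.08) and 2 of 10 biliary and progenitor markers were higher (median 1.83), and their part in these values was not tested.

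**Figure D4:**
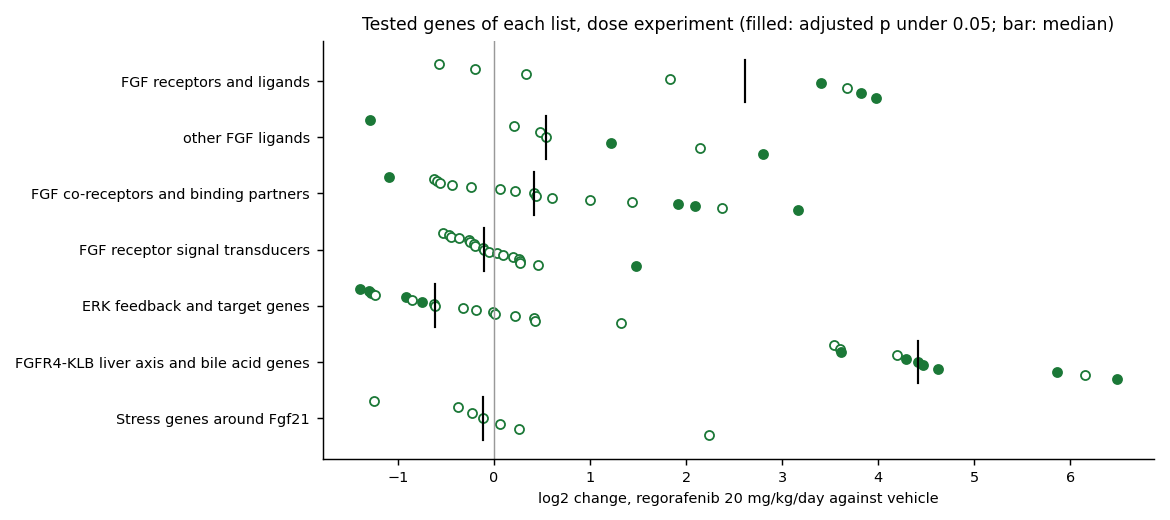
Log2 change at 20 mg/kg/day against vehicle in the dose experiment (x axis) for each tested gene of the 8 members and of the 6 pathway lists (y axis). Points are single genes, filled where the adjusted p was under 0.05, and black bars are medians; the FGFR4-KLB axis list has its median at 4.41, and the ERK feedback list at -0.61.

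Members were also set beside markers of stromal and immune cells, since FGFR1 is typical of mesenchymal cells. With the mean log2 CPM of 14 fibroblast and stellate cell markers, r over the 32 libraries was 0.47 for Fgfr1 (rho = 0.34; adjusted permutation p = 0.0435 and 0.166), 0.51 for Fgfr2 (rho = 0.57; 0.0299 and 0.0159), 0.48 for Fgfr3 (rho = 0.57; 0.0226 and 0.0126) and 0.44 for Fgf1 (rho = 0.50; 0.0447 and 0.0315). These 4 of 8 members passed on r, against 9.97% of all genes higher and 10.7% lower with this score. For Fgfr1 the relation rested on few tumors: r was 0.20 without the 2 libraries farthest from the median of the score, and 0.03, 0.55 and 0.75 within the 3 experiments in that order (dose, DC-101, anti-PD1). On values centered on treatment groups none of the 4 passed, with adjusted permutation p from 0.138 to 0.254.

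No member passed on r with the endothelial score, from -0.04 for Fgf21 to 0.34 for Fgfr2, where 1.65% of genes were higher and 0.467% lower with it. With the macrophage score r ran from -0.33 for Fgfr3 to -0.01 for Klb, none passed by the permutation test, and 2.05% of genes were higher and 3.72% lower with it.

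**Figure D5:**
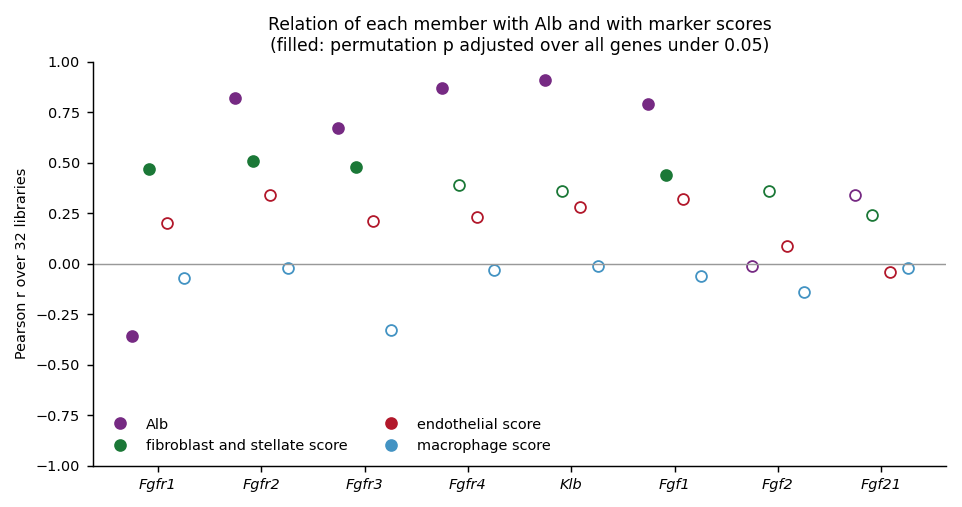
Pearson's r over 32 libraries (y axis) of each member (x axis) with Alb and with the fibroblast and stellate, endothelial and macrophage scores, on values centered on each experiment. Filled points passed the permutation test after adjustment over all genes; the Alb points of Klb, Fgfr4, Fgfr2, Fgf1 and Fgfr3 are at 0.67 to 0.91, and no endothelial or macrophage point is filled.

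The genes most like each member over the 32 libraries, by r on the same values, were of different kinds. For Klb they were Adora1, Gpld1 and Cdo1 (r = 0.95 each) and for Fgfr4 Cblc, Acox2 and Epb41l4b (0.96 each). Fgfr2 was closest to Alpl, Slc4a4 and Steap4 (0.96, 0.95 and 0.94), Fgfr3 to Als2cl, Sema4g and Shroom1 (0.93, 0.91 and 0.91) and Fgf1 to C4b, AI464131 and Ddc (0.93 each). Acox2, a peroxisomal oxidase of bile acid intermediates, and Cdo1, a cysteine dioxygenase, are enzymes with high levels in liver. Fgfr1 was closest to Asap1, Pacs1 and Smtn (0.94, 0.94 and 0.93), of which Smtn encodes the smooth muscle protein smoothelin. Fgf21 was closest to Cyp4a12a, Dio1 and Inhbe (0.80, 0.79 and 0.78), and Fgf2 to Spty2d1, Hk2 and Acbd3 (0.82 each). The likeness of the best match was thus lowest for the hormone Fgf21 and for Fgf2.

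The members lie on 6 chromosomes of GRCm38: Fgfr1 at chr8:25513654-25575718, Fgfr2 at chr7:130162451-133123350, Fgfr3 at chr5:33721674-33737068, Fgfr4 at chr13:55152640-55168759, Klb at chr5:65348314-65384007, Fgf1 at chr18:38838673-38929472, Fgf2 at chr3:37348346-37410108 and Fgf21 at chr7:45613886-45615490. Exons of Fgfr3 shared 13.9% of their bases with the antisense gene G630022F23Rik, those of Fgf2 13.2% with Nudt6 and Gm43439, those of Fgfr2 3.0% with Ctbp2 and those of Fgfr1 1.7% with Gm16159. On the same strand the shares were 0 for Fgfr3 and Fgfr1, 3.8% for Fgf2 and 3.0% for Fgfr2. The libraries were stranded, but the strand setting of the counts is not given in the sources used here, so reads in the opposite-strand stretches may belong to either gene. Fgfr4, Klb, Fgf1 and Fgf21 shared none.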

How the data were processed

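RNA sequencing of 32 tumors was analysed from the deposited counts. Per the labels total RNA was extracted from frozen tissue, while the study's methods speak of fresh samples; libraries were made with a stranded mRNA kit, adapters were removed with cutadapt 2.4, and STAR 2.7.2a aligned reads to GRCm38; the authors deposited raw counts per gene of Gencode M19, without normalization. Which strand column was taken is not given in the sources used here. The versions are those of the submitters' processing notes. Symbols and positions were taken from Gencode M21, which matched 54409 of 54446 gene rows. Promoters came from RefSeq.

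Groups, experiments and replicate numbers were taken from the labels. Replicates of a group differed by more than sampling noise (chi-square per degree of freedom 14 to 918.5 over 36 pairs) and were all kept. The labels do not say whether replicates are separate mice, so p-values measure the spread between these samples only. The groups of an experiment entered 1 fit in edgeR 4.0.16 (R 4.3.3): filterByExpr (minimum count 10, minimum total count 15), TMM, and the robust 2-sided quasi-likelihood F-test. P-values were adjusted by the Benjamini-Hochberg method over the 16525, 16138 and 16615 genes tested of the experiments p112, p103 and p101, or 17238 over all 3, with a threshold of 0.05. In all, 11 comparisons and 1 interaction were fitted. Log2 CPM had a prior count of 2. Relations of members with Alb and 3 marker scores were tested with 100000 permutations, adjusted over all genes. The members, pathway lists, marker lists and tests were chosen with earlier results of these data known. Named are all members, the 3 genes most like each, and, of each pathway list, up to 3 genes per direction with the largest change among those that passed; Dusp6, Spred1 and the genes named between doses were chosen after their values were seen. The scripts were tested on simulated data. Alternatives were DESeq2 1.42.0, limma-voom (limma 3.58.1, the study's package), other scalings, no filter, Alb as a covariate, a replicate block and leaving out libraries. Same-number libraries deviated together (correlation over 0.1) in 2 of 9, 4 of 9 and 6 of 18 pairs of the 3 experiments, so numbers were not treated as pairs. Intervals and limits cover these libraries only.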

Additional observations from a re-analysis of the deposited data

How the results depend on the processing

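At 20 mg/kg/day against vehicle, 3 members passed with TMM, with DESeq2 size factors and by DESeq2 (Fgfr3, Fgfr4 and Klb, with no adjusted p for Fgf1), 1 by limma-voom (Fgfr3), and 0 with total count scaling (adjusted p from 0.0511 to 0.0679), without a filter, with Alb as a covariate and with the replicate block. Genes called there were 2582, against 282 with total count scaling, 416 without a filter, 5275 by DESeq2, 1349 by limma-voom, 99 with Alb and 1 with the replicate block, and 15 to 7030 without single libraries, with 0 to 5 members. Total count scaling moved the median of all genes from 0.02 to -0.13.

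Between the doses, 697 genes passed (288 higher, 409 lower), against 198 with total count scaling (59 higher, 139 lower), 309 without a filter (68 higher, 241 lower), 3059 by DESeq2 (1852 higher, 1207 lower), 1 with the replicate block and 62 to 4488 without single libraries. Members there were 2 by DESeq2 (Fgfr3 and Klb), 2 with Alb, and 0 to 3 without single libraries. At 5 mg/kg/day over the 3 experiments, 262 genes passed, against 153 without a filter, 1061 by DESeq2, 68, 35 and 394 without experiments p112, p103 and p101, and 155 to 333 without single libraries; the replicate block gave 175. Within experiments, genes at 5 mg/kg/day were 0 in the dose experiment (85 by DESeq2, 2 with Alb), 4 in the DC-101 experiment (12 without a filter, 1097 by DESeq2 with 1 member, 1 with Alb, 0 with the replicate block, 0 without any single library) and 0 in the anti-PD1 experiment (10 without a filter, 425 by DESeq2 with 1 member). By DESeq2, 373 genes passed with DC-101, 203 between regorafenib and DC-101, 614 with anti-PD1 (1 member), 150 with both agents (1 without a filter) and 210 between both agents and anti-PD1.

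Estimates changed sign for Fgfr4 at 5 mg/kg/day (-0.30 without the DC-101 experiment; in the dose experiment -0.35 with Alb and -0.58 to 1.57 without single libraries), for Fgfr2 (-0.60) and Fgf21 (-0.76) at 20 mg/kg/day with Alb, for Fgf2 (-0.82 to 0.14) and Fgf21 (-0.11 to 1.29) there without single libraries, for Fgfr1 between regorafenib and DC-101 (-0.05 to 0.16 without single libraries), and with Alb for Fgf1 (0.08) and Klb (0.12) with anti-PD1. With the fibroblast score, 4 members passed, 0 on values centered on treatment groups and 1 with total count scaling. The cause of these changes was not tested. Klb, Fgfr2 and Fgfr4 rested on few counts in several libraries, which limits their precision, and groups of 3 or 4 limit every comparison.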
